A study of Mus musculus with 11 samples.

Results

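The Hedgehog genes described here are 9 core members of one signalling pathway: the ligands Ihh and Shh, the receptor Ptch1, the signal transducer Smo, the transcription factors Gli1, Gli2 and Gli3, and the inhibitors Hhip and Sufu. They were picked by symbol, and each gene was read on 1 Affymetrix probe set, the one with the highest mean over all arrays among those annotated to that gene alone. These are 9 of the 18193 genes that had such a probe set. Their RNA levels were compared across 6 sorted mouse cell populations on 11 arrays, as log2 values in which 1 unit is a 2-fold difference.

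Hedgehog ligands are secreted proteins that bind Ptch1, a membrane receptor that in the absence of ligand keeps Smo inactive. Ligand binding frees Smo, and Smo changes the balance of the Gli proteins from repressor forms, chiefly of Gli3, to activator forms, chiefly of Gli2. Gli1, Ptch1 and Hhip are themselves raised by the pathway in many tissues, and Ihh from prehypertrophic chondrocytes of the growth plate drives osteoblast formation in bone that forms on a cartilage template.

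The P-SSCs were Mx1+Ocn- skeletal stem cells of the periosteum (2 arrays), from mice carrying Mx1-Cre, a Rosa26 Tomato reporter and an osteocalcin GFP reporter. The BM-SSCs were Mx1+Nes+ marrow cells (2 arrays), from mice with Mx1-Cre, the same Tomato reporter and Nestin GFP. Nes+ BMSCs were Nestin-GFP marrow cells with or without Mx1 (1 array), and all 3 of these populations were sorted as CD105+CD140a+. The others were CD51+ BMSCs from marrow (2 arrays), for which the study's text, but not the labels, adds the same CD105+CD140a+ selection, Osx+ cells carrying GFP under Osterix, the osteoblast transcription factor Sp7 (2 arrays), and CD45+ hematopoietic marrow cells (2 arrays). Every population except the CD45+ cells was sorted free of CD45, CD31 and Ter119. The mice behind the Mx1 sorts had been irradiated at 4 weeks of age with 9.5 Gy, had received wild-type marrow and had been injected with pIpC (25 mg/kg), which induces Mx1-Cre, so Mx1+ marks cells by their past interferon response. The osteocalcin and Nestin GFP lines were on a C57/BL6 background and the donor marrow came from C57BL/6 mice, while strain and age are not tied to the CD51+, Osx+ and CD45+ sorts in the sources used here. RNA was pooled from sorted cells of several male and female mice. The study's methods call the arrays of a population biological repeats without saying which mice went into each, so the p-values reflect how far these arrays spread. GEO's source label gives periosteal tissue for the Osx+ and Nes+ arrays, while the Nes+ title gives marrow.

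Promoter windows from RefSeq (GRCm38.p6, 250 bases before to 50 after the gene's start) matched 7 of the 9 genes: Ihh, Ptch1, Smo, Gli2, Gli3, Hhip and Sufu. The windows of Ihh (chr1:74951623-74951922, minus strand) and Gli3 (chr13:15463473-15463772, plus strand) are shown because these genes gave 6 of the 8 differences that passed the test. Both strands were searched for the GLI motif GACCACCCA and for the core RUNX motif TGTGGT. Capitals mark the match to TGTGGT on the minus strand of the Gli3 window.
Ihh: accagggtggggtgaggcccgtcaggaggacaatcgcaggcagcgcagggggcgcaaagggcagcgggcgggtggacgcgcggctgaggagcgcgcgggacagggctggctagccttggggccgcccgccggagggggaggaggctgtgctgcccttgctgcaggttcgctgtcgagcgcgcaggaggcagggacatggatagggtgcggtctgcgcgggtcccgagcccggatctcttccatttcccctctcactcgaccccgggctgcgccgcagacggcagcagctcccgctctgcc
Gli3: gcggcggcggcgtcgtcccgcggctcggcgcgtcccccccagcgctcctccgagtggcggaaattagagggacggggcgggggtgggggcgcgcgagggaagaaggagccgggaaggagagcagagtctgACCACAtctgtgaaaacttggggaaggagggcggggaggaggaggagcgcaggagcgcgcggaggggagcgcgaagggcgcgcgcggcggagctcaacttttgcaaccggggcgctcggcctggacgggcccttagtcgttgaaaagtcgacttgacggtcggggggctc
The GLI motif was found in 0 of the 7 windows and in 0.253% of 32851 mouse promoter windows of the same length. The RUNX motif was found in 1 of the 7 windows, that of Gli3, and in 16.8% of all windows. No factor binding was measured here.

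A pair of arrays stood apart from the rest. These were P-SSC array 2 and BM-SSC array 2, with interquartile ranges of 1.81 and 1.98, against 2.44 to 3.56 on the other 9 arrays. Their 3' beta-actin control was at 7.81 and 12.78 against 13.23 to 14.25 elsewhere, and the spiked bioB control at 13.76 and 12.31 against 6.51 to 11.85. The arrays of a population correlated at r = 0.456 for P-SSCs and 0.771 for BM-SSCs over 45037 probe sets, against 0.985 to 0.995 for the others. Every comparison is therefore given with all 11 arrays and again with 9, without those arrays. In the 9-array fit each SSC population is 1 array, which is assumed to vary like the other populations. Tests are limma's moderated tests with Benjamini-Hochberg adjustment over all 45037 probe sets, and a gene passed at an adjusted p under 0.05.

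Without the arrays that stood apart, the receptor, Smo, Gli and Hhip genes were higher in the skeletal populations than in CD45+ cells. This was read on the probe sets used, and for the receptor, Ptch1, the other 2 did not follow. Ihh stood out in the Osx+ cells. Of 99 gene-by-comparison tests, which reuse the same arrays, 8 passed with all arrays. Of all probe sets 2.48%, 2.18%, 2.95% and 3.65% were higher in P-SSCs, BM-SSCs, CD51+ BMSCs and Osx+ cells than in CD45+ cells. In CD51+ BMSCs 0.711% were lower than in Osx+ cells. Gli3 was higher than in CD45+ cells in all 4 populations tested against them, by 2.32 to 4.02 log2 units. Ihh was higher in Osx+ cells than in CD45+ cells and lower in CD51+ BMSCs than in Osx+ cells. Smo was higher in Osx+ cells and Hhip in P-SSCs, each against CD45+ cells. P-SSCs and BM-SSCs did not differ past the threshold in any of the 9 genes.

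Against CD45+ cells the counts were as follows. P-SSCs had 2 of 9 genes higher, where 2.48% of all probe sets were. BM-SSCs had 1 of 9 higher, against 2.18% of probe sets. CD51+ BMSCs had 1 of 9, against 2.95%, and Osx+ cells had 3 of 9, against 3.65%. These 4 comparisons share their CD45+ arrays, and 0 of 9 genes passed as lower in each, where 7.29%, 6.26%, 2.9% and 5.62% of probe sets did in the same order. The median difference of the 9 genes was 1.59, 1.43, 1.74 and 3.08 in P-SSCs, BM-SSCs, CD51+ BMSCs and Osx+ cells over CD45+ cells, and that of all probe sets was 0.38, 0.18, -0.09 and 0.02. With 9 arrays the numbers higher were 6, 6, 6 and 7 of 9 in the same order, against 22.6%, 15.3%, 14.7% and 18% of probe sets, and Sufu was lower in P-SSCs, against 26% of probe sets.

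**Figure D1:**
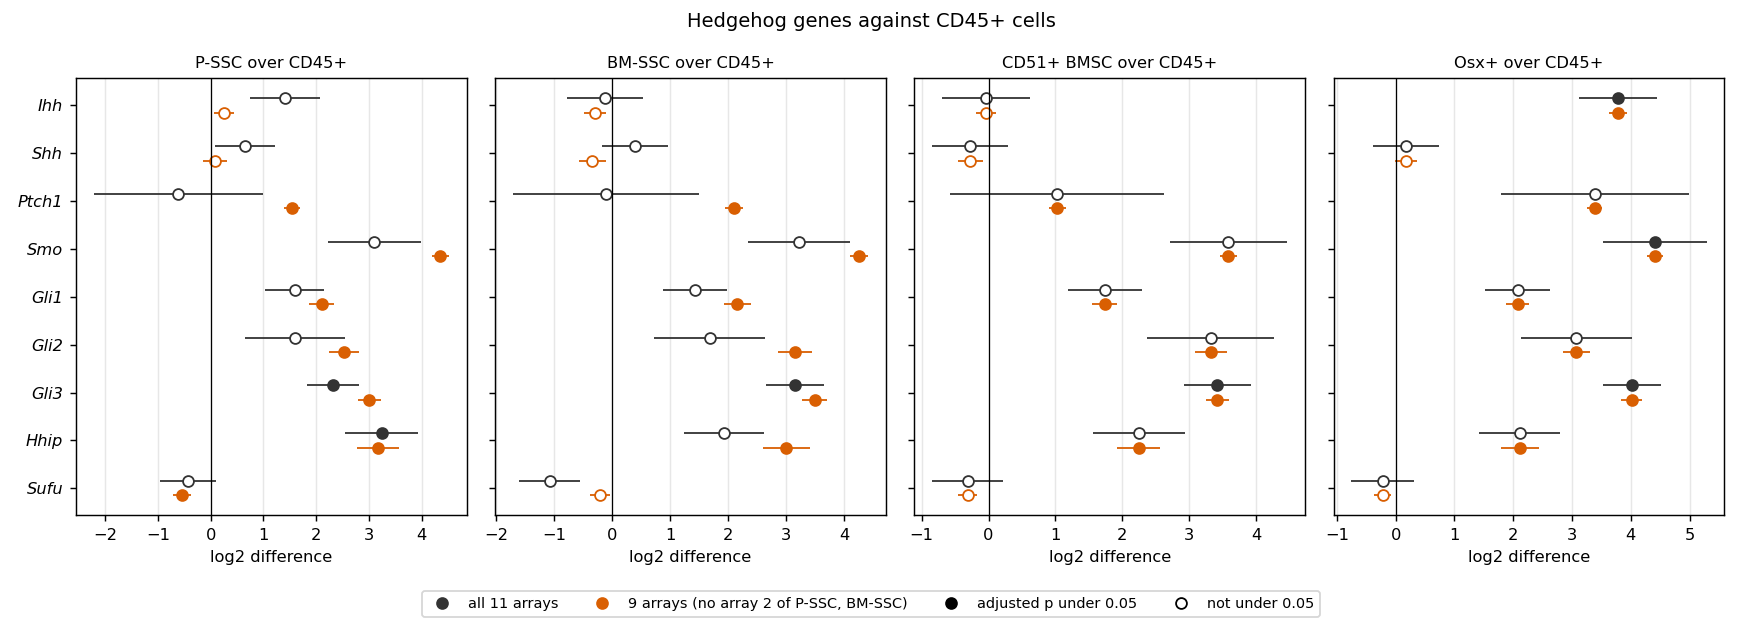
Difference of each Hedgehog gene between P-SSCs, BM-SSCs, CD51+ BMSCs or Osx+ cells and CD45+ cells (x axes, log2 units; bars, SE), with all 11 arrays (black) and with 9 arrays (orange); filled points had an adjusted p under 0.05. Smo, Gli1, Gli2, Gli3 and Hhip lie right of 0 in every panel, while Sufu lies left of 0 in every panel and Ihh lies at 3.78 in Osx+ cells and at 1.40 or less in the others.

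Against Osx+ cells, P-SSCs had 0 of 9 genes past the threshold, where 0.808% of probe sets passed in either direction, and 3 of 9 with an unadjusted p under 0.05, against 18.1% of probe sets. BM-SSCs had 0 of 9 past it, against 0.615%, and 1 of 9 by unadjusted p, against 9.24%. CD51+ BMSCs had 1 of 9, Ihh, lower, against 0.711%. With 9 arrays P-SSCs had 3 genes lower, BM-SSCs 2 and CD51+ BMSCs 4, against 14%, 7.46% and 11.4% of probe sets, and Ihh and Ptch1 were among them each time. These 3 comparisons share their Osx+ arrays. No gene passed in P-SSCs over CD51+ BMSCs (0.595% of probe sets), BM-SSCs over CD51+ BMSCs (0.617%), P-SSCs over BM-SSCs (0%) or BM-SSCs over Nes+ BMSCs (0%). The count of genes with an unadjusted p under 0.05 was 0 of 9 in each, where 22.5%, 11.5%, 2.07% and 0.835% of probe sets had one. With 9 arrays 2 genes, Ptch1 and Smo, were higher in P-SSCs than in CD51+ BMSCs, and the same 2 in BM-SSCs, against 13.7% and 5.61% of probe sets.

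**Figure D2:**
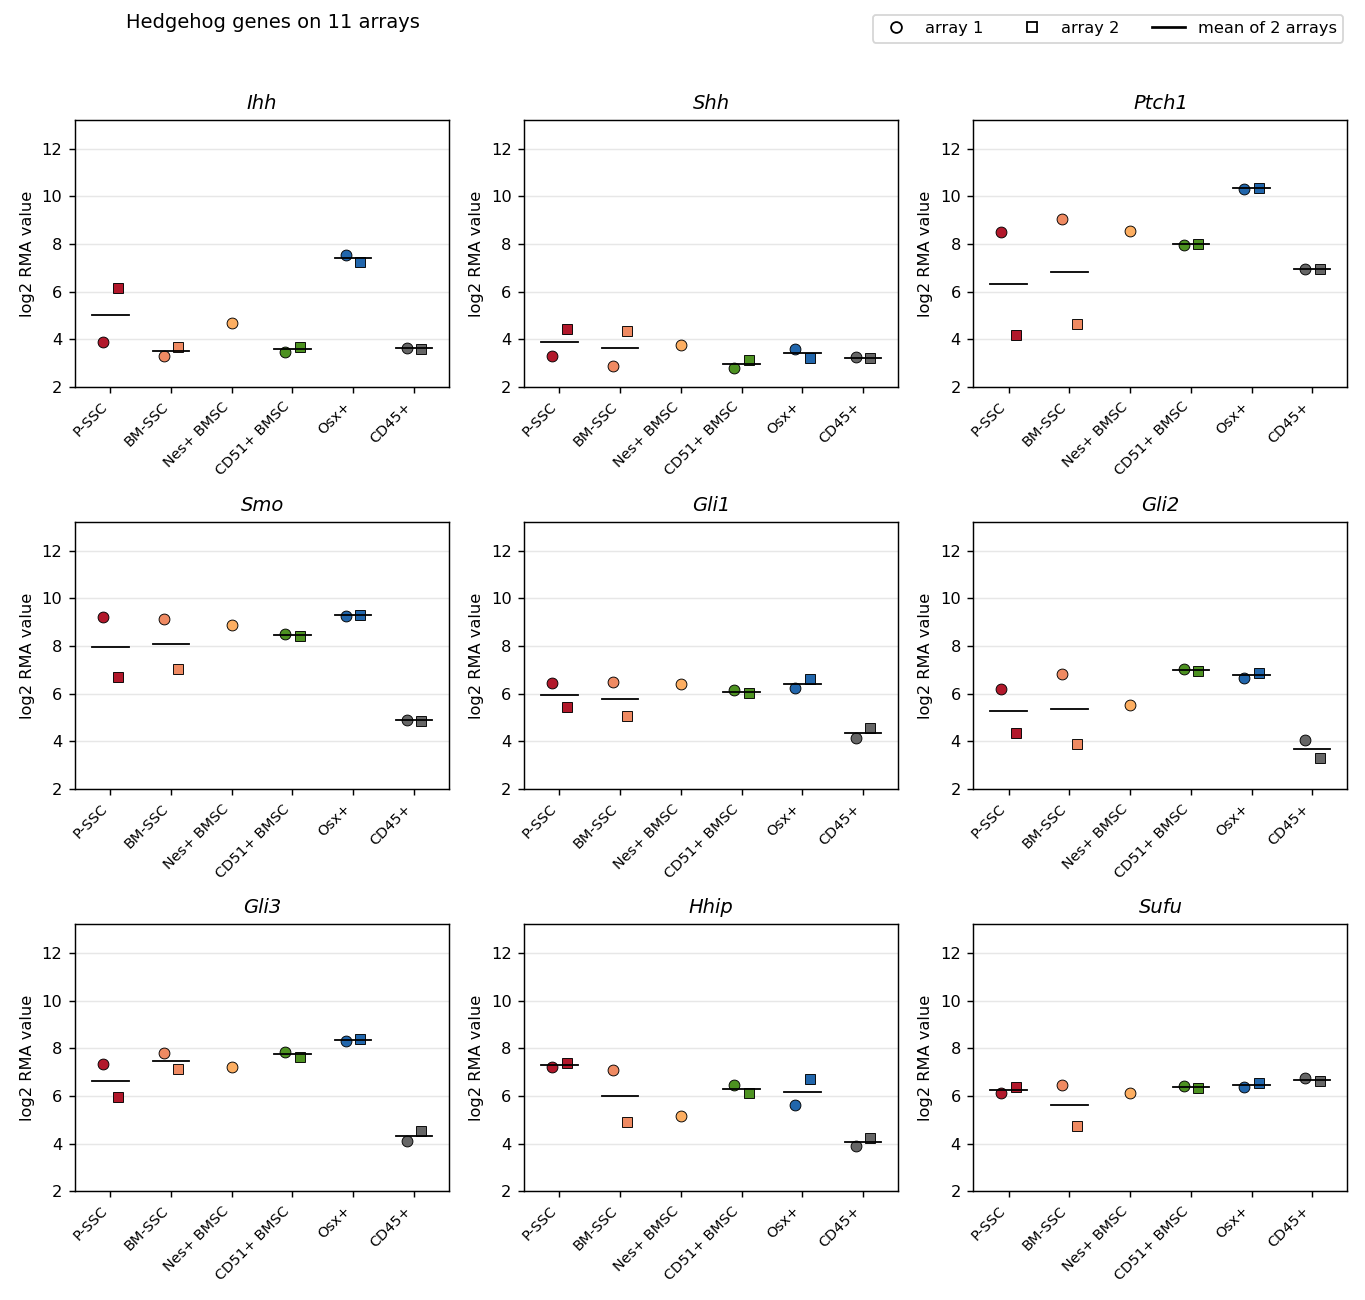
Log2 RMA value (y axes) of each Hedgehog gene on all 11 arrays, by population (x axes); circles are array 1, squares array 2 and lines the mean of 2 arrays. Ihh is highest on both Osx+ arrays (7.54 and 7.26), Shh lies at or under the median of its array on all 11, and Smo and Gli3 are lowest on the CD45+ arrays.

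Ihh, the ligand of growth plate cartilage, was high in 1 population, the Osx+ cells. The Osx+ arrays read 7.54 and 7.26. The P-SSC arrays read 3.87 and 6.16, the BM-SSC arrays 3.32 and 3.67, the Nes+ array 4.66, the CD51+ arrays 3.49 and 3.67 and the CD45+ arrays 3.64 and 3.59. Both Osx+ arrays were above the other 9, array 2 of the P-SSCs came next, and the BM-SSC, CD51+ and CD45+ arrays overlapped. On 7 of the 11 arrays Ihh was at or under the median of its array.

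The difference of Ihh between Osx+ and CD45+ cells was 3.78 ± 0.66 log2 units (SE, adjusted p = 0.0114), a 13.8-fold difference. In CD51+ BMSCs Ihh fell by 3.82 ± 0.66 relative to Osx+ cells (adjusted p = 0.0292). For P-SSCs the difference from Osx+ cells was -2.38 ± 0.66 (adjusted p = 0.190) with all arrays and -3.53 with 9 (adjusted p = 4.14e-05). For BM-SSCs it was -3.91 ± 0.66 (adjusted p = 0.0597) and -4.08 (adjusted p = 3.08e-05). Without either CD45+ array or either Osx+ array the Osx+ against CD45+ difference no longer passed (adjusted p up to 0.102). The CD51+ against Osx+ difference was also lost without either CD51+ array (adjusted p up to 0.258), and both were lost after quantile normalization (adjusted p = 0.0862 and 0.205). In bulk samples more cells of a type and more RNA per cell cannot be told apart.

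Chondrocyte markers were also highest in the Osx+ cells. Over 8 markers the mean log2 level was 12.98 and 13.04 on the Osx+ arrays, with 0 of 8 at or under the array's median. It was 6.69 and 5.004 on the P-SSC arrays, 7.54 and 6.31 on the BM-SSC arrays, 7.18 in Nes+ BMSCs, 8.90 and 9.17 in CD51+ BMSCs and 3.57 and 3.53 in CD45+ cells, where 8 of 8 were at or under the median. Col10a1, the collagen of hypertrophic chondrocytes, read 12.25 and 12.31 in Osx+ cells and 4.07 and 3.54 in CD45+ cells. The Osx+ label was thus accompanied by a full set of cartilage markers next to its own gene Sp7 (8.93 and 8.58 in Osx+ cells, 4.30 and 4.05 in CD45+ cells). Their part in the Ihh difference was not tested.

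Shh, the ligand of limb and neural patterning, was low in every population. It read 3.32 and 4.44 on the P-SSC arrays, 2.89 and 4.36 on the BM-SSC arrays, 3.75 in Nes+ BMSCs, 2.79 and 3.12 in CD51+ BMSCs, 3.61 and 3.20 in Osx+ cells and 3.25 and 3.21 in CD45+ cells. The highest readings were those of array 2 of both SSC populations, and all 11 values were at or under the median of their array. The Osx+ and CD45+ arrays overlapped, with a difference of 0.18 ± 0.56 (SE). Shh passed in no comparison with 11 arrays. On 9 arrays it passed in 1, at -0.87 in BM-SSCs relative to Nes+ BMSCs (adjusted p = 0.0447), which is 1 array against 1.

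Ptch1, the ligand receptor and itself a target of the pathway, had its highest readings in Osx+ cells, at 10.32 and 10.36. It read 8.49 and 4.19 on the P-SSC arrays, 9.05 and 4.63 on the BM-SSC arrays, 8.53 in Nes+ BMSCs, 7.95 and 8.01 in CD51+ BMSCs and 6.95 and 6.96 in CD45+ cells. Both Osx+ arrays were above all others, and array 2 of both SSC populations was below every other array. That gap gave Ptch1 the widest error of the 9 genes (SE 1.60), and it passed in no comparison with 11 arrays, with an adjusted p of 0.327 for a difference of 3.39 between Osx+ and CD45+ cells.

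With 9 arrays Ptch1 was higher than in CD45+ cells in every population tested, on the probe set used. P-SSCs were higher by 1.54 (adjusted p = 0.000169), BM-SSCs by 2.10 (3.75e-05), CD51+ BMSCs by 1.03 (0.000522) and Osx+ cells by 3.39 (6.29e-07). Relative to Osx+ cells the difference was -1.85, -1.29 and -2.36 for P-SSCs, BM-SSCs and CD51+ BMSCs (adjusted p = 0.000272, 0.00174 and 1.47e-05). It was also higher than in CD51+ BMSCs, by 0.51 in P-SSCs (adjusted p = 0.0446) and 1.07 in BM-SSCs (0.00477). Leaving out those arrays thus turned the sign of the P-SSC and BM-SSC differences from CD45+ cells, which were -0.61 and -0.11 with all 11 arrays. The order by array was Osx+, then BM-SSC array 1, Nes+ and P-SSC array 1 within 0.56 of each other, then CD51+ and CD45+. The other 2 probe sets of Ptch1 did not follow the one used, with r = -0.262 and -0.384 over 11 arrays and 0.292 and 0.534 over 9. With 9 arrays the brighter of them differed from CD45+ cells by 0.47, -0.03, -0.04 and 0.26 in P-SSCs, BM-SSCs, CD51+ BMSCs and Osx+ cells. The dimmer differed by 0.42, 1.145, -0.04 and 0.49 in the same order.

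Smo, the membrane protein that passes the signal into the cell, was low in CD45+ cells and high elsewhere. It read 9.23 and 6.72 on the P-SSC arrays, 9.14 and 7.06 on the BM-SSC arrays, 8.91 in Nes+ BMSCs, 8.50 and 8.43 in CD51+ BMSCs, 9.27 and 9.32 in Osx+ cells and 4.89 and 4.87 in CD45+ cells. Every other array was above both CD45+ arrays, and without array 2 of the SSC populations the remaining 7 lay between 8.43 and 9.32. Smo was 4.41 ± 0.88 higher in Osx+ cells than in CD45+ cells (adjusted p = 0.0199, 21.2-fold). This call was lost without either CD45+ array or either Osx+ array (adjusted p up to 0.136). In P-SSCs, BM-SSCs and CD51+ BMSCs the difference from CD45+ cells was 3.09, 3.22 and 3.59, with adjusted p = 0.0666, 0.0662 and 0.0595. On 9 arrays it was 4.35, 4.26 and 3.59 and passed in all 3 (adjusted p = 1.18e-06, 1.26e-06 and 6.84e-07). A further probe set of Smo, which correlated with the one used at r = 0.935, passed in all 4 comparisons with CD45+ cells and all arrays, with adjusted p = 0.00427, 0.00486, 0.00602 and 0.00139 in P-SSCs, BM-SSCs, CD51+ BMSCs and Osx+ cells. The dimmest Smo probe set (r = 0.26) passed in none of the 4 with all arrays, with differences of 1.35, 1.37, 0.15 and 0.60. With 9 arrays its r was 0.673 and its difference 1.22 in P-SSCs and 1.02 in BM-SSCs.

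Among skeletal populations the differences of Smo were smaller. With 9 arrays P-SSCs differed from Osx+ cells by -0.06 ± 0.16 (adjusted p = 0.824) and BM-SSCs by -0.15 ± 0.16 (0.637). Smo fell by 0.82 ± 0.13 in CD51+ BMSCs relative to Osx+ cells (adjusted p = 0.00274), and in P-SSCs and BM-SSCs it was 0.77 and 0.67 higher than in CD51+ BMSCs (adjusted p = 0.0117 and 0.0298). With all 11 arrays none of these passed.

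Gli1, the Gli protein most directly induced by the signal, read 6.45 and 5.43 on the P-SSC arrays, 6.51 and 5.06 on the BM-SSC arrays, 6.39 in Nes+ BMSCs, 6.17 and 6.01 in CD51+ BMSCs, 6.25 and 6.60 in Osx+ cells and 4.16 and 4.55 in CD45+ cells. All 9 other arrays were above the CD45+ arrays, and 7 of them, those other than array 2 of the SSC populations, lay between 6.01 and 6.60. With 11 arrays the difference from CD45+ cells was 1.59, 1.43, 1.74 and 2.07 in P-SSCs, BM-SSCs, CD51+ BMSCs and Osx+ cells, and the lowest adjusted p was 0.0593, in Osx+ cells. The 9-array fit passed it in all 4, at 2.10, 2.16, 1.74 and 2.07 (adjusted p between 6.88e-05 and 0.000252). Osx+ cells, which had the most Ihh and Ptch1, were not separated in Gli1 from the SSC populations. The difference from Osx+ cells with 9 arrays was 0.02 ± 0.23 in P-SSCs and 0.08 ± 0.23 in BM-SSCs.

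Gli2, the main activator, was highest on the probe set used in CD51+ BMSCs, at 7.06 and 6.97, and in Osx+ cells, at 6.66 and 6.87. It read 6.22 and 4.37 on the P-SSC arrays, 6.84 and 3.90 on the BM-SSC arrays, 5.52 in Nes+ BMSCs and 4.06 and 3.32 in CD45+ cells. The lower BM-SSC array overlapped the CD45+ arrays. It passed in no comparison with 11 arrays, where its difference from CD45+ cells was 3.32 ± 0.95 in CD51+ BMSCs (adjusted p = 0.1002) and 3.08 ± 0.95 in Osx+ cells (adjusted p = 0.101). With 9 arrays Gli2 was higher than in CD45+ cells by 2.52, 3.15, 3.32 and 3.08 in P-SSCs, BM-SSCs, CD51+ BMSCs and Osx+ cells (adjusted p = 0.000310, 0.000109, 2.49e-05 and 2.72e-05). It was also 1.32 higher in BM-SSCs than in Nes+ BMSCs (adjusted p = 0.0264), where 15.8% of probe sets were higher. The second probe set of Gli2, nearly as bright, followed the one used at r = 0.355 over 11 arrays and 0.864 over 9. It read 5.47 and 6.86 on the P-SSC arrays, 5.45 and 5.93 in CD51+ BMSCs and 5.96 and 5.92 in Osx+ cells, so the order of these populations was another one. Over CD45+ cells it passed with 11 arrays in P-SSCs (1.90, adjusted p = 0.0499), and with 9 arrays in all 4 populations. BM-SSCs differed from Nes+ BMSCs on it by -0.40 with 9 arrays (adjusted p = 0.305).

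Gli3, the main repressor, gave the steadiest difference from CD45+ cells. It read 7.33 and 5.96 on the P-SSC arrays, 7.81 and 7.14 on the BM-SSC arrays, 7.20 in Nes+ BMSCs, 7.85 and 7.63 in CD51+ BMSCs, 8.28 and 8.40 in Osx+ cells and 4.12 and 4.53 in CD45+ cells. The CD45+ arrays were below all 9 others and the Osx+ arrays above them. Its difference from CD45+ cells was 2.32 ± 0.50 for P-SSCs (SE, adjusted p = 0.0292) and 3.15 ± 0.50 for BM-SSCs (0.0104). It was 3.42 ± 0.50 for CD51+ BMSCs (0.0101) and 4.02 ± 0.50 for Osx+ cells (0.00252). The Osx+ difference passed in all 11 fits that left out 1 array, with adjusted p up to 0.0373. The others did not. The BM-SSC difference was lost without either CD45+ array (adjusted p up to 0.114), the CD51+ difference also without either CD51+ array (up to 0.119), and the P-SSC difference without any 1 of the 6 arrays of CD45+, CD51+ and Osx+ cells (up to 0.209).

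The spread of Gli3 among the skeletal populations was narrower. On 9 arrays its difference from Osx+ cells was -1.01 ± 0.22 for P-SSCs (adjusted p = 0.0132) and -0.60 ± 0.18 for CD51+ BMSCs (0.0448), while it was -0.53 ± 0.22 for BM-SSCs (0.169). The neighbours BM-SSCs and CD51+ BMSCs differed by 0.07 ± 0.22 in that fit. A further Gli3 probe set followed the one used at r = 0.973 and passed over CD45+ cells in BM-SSCs, CD51+ BMSCs and Osx+ cells, with adjusted p = 0.0447, 0.0276 and 0.00580, and not in P-SSCs (2.23, adjusted p = 0.0536). The dimmest Gli3 probe set did not follow it (r = 0.0228).

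**Figure D3:**
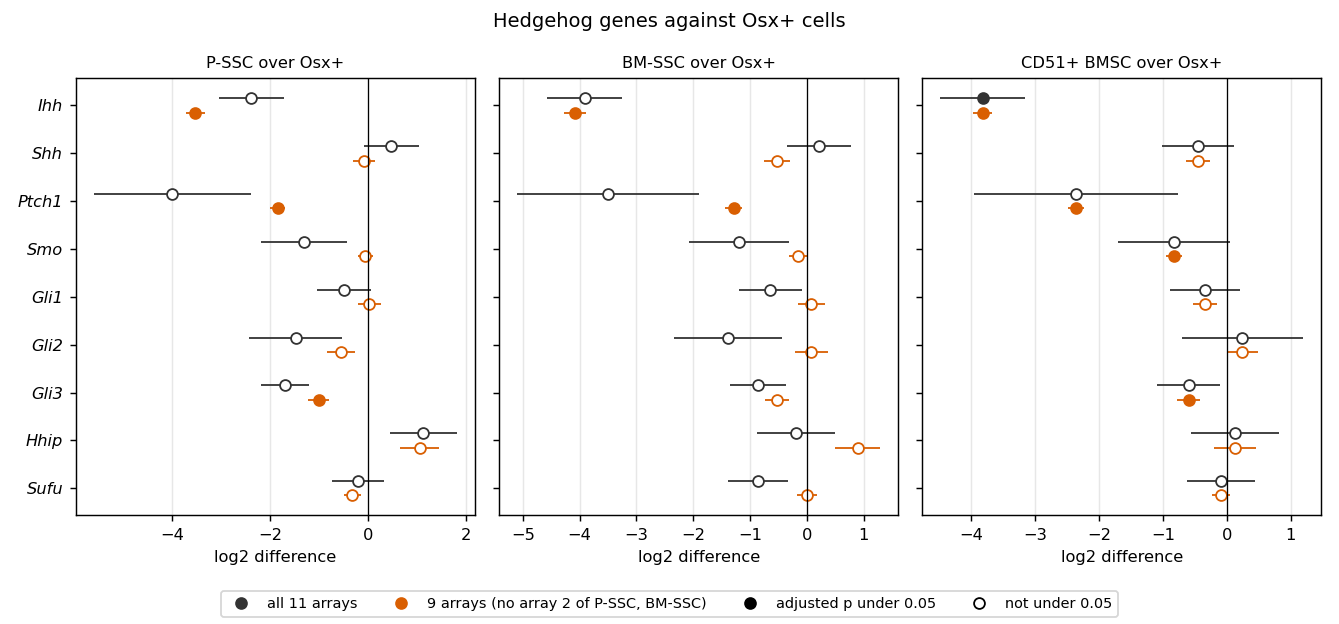
Difference of each Hedgehog gene between P-SSCs, BM-SSCs or CD51+ BMSCs and Osx+ cells (x axes, log2 units; bars, SE), with all 11 arrays (black) and with 9 arrays (orange); filled points had an adjusted p under 0.05. Ihh and Ptch1 lie left of 0 in each panel. Of the orange points of Gli1, Gli2 and Sufu, the furthest from 0 is at -0.55 (Gli2 in P-SSCs).

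Hhip, a membrane decoy that binds Hedgehog ligands, had its highest mean in P-SSCs on the probe set used. It read 7.22 and 7.37 on the P-SSC arrays, 7.07 and 4.90 on the BM-SSC arrays, 5.17 in Nes+ BMSCs, 6.47 and 6.14 in CD51+ BMSCs, 5.64 and 6.71 in Osx+ cells and 3.90 and 4.22 in CD45+ cells. Both P-SSC arrays were above the other 9, although BM-SSC array 1 came within 0.16 of the lower one. Hhip was 3.24 ± 0.69 higher in P-SSCs than in CD45+ cells (SE, adjusted p = 0.0288, 9.44-fold). That call was lost without P-SSC array 2, which leaves a difference of 3.16, and without any 1 of the 6 CD45+, CD51+ and Osx+ arrays (adjusted p up to 0.190). The 9-array differences from CD45+ cells were 3.16, 3.01, 2.24 and 2.11 for P-SSCs, BM-SSCs, CD51+ BMSCs and Osx+ cells, and all passed (adjusted p = 0.000486, 0.000719, 0.00113 and 0.00121). The neighbours below P-SSCs in the order, CD51+ BMSCs (6.30 on average) and Osx+ cells (6.17), overlapped, and P-SSCs were 1.13 ± 0.69 above Osx+ cells (adjusted p = 0.314). The other 3 probe sets of Hhip were lower on array 2 than on array 1 of both SSC populations, and correlated with the one used at r between 0.651 and 0.853 over 11 arrays. On these probe sets P-SSCs differed from CD45+ cells by 2.60, 2.13 and 2.02 with 11 arrays and did not pass (adjusted p = 0.238, 0.105 and 0.105). With 9 arrays all 3 passed. With 11 arrays the P-SSC lead turned on them. The differences were -0.62, -0.53 and -0.34 from Osx+ cells and -0.52, -0.28 and -0.13 from BM-SSCs, and none of these 11-array differences passed. With 9 arrays the differences from Osx+ cells were 1.67, -0.08 and 0.19 on the same probe sets. Those from BM-SSCs were -0.18, -1.01 and -0.62. Endothelial markers were also higher in P-SSCs than in CD45+ cells, 4 of 8 with 11 arrays and 7 of 8 with 9. Their mean log2 level was 6.50 and 4.76 on the P-SSC arrays, 5.71 and 5.53 on the BM-SSC arrays, 3.64 to 5.11 on the other skeletal arrays and 4.52 and 4.38 in CD45+ cells. Array 2 of the P-SSCs was the lower one in these markers. Its Hhip reading was the higher one on the probe set used and the lower one on the other 3 probe sets. The part of the endothelial markers in the Hhip difference was not tested.

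Sufu, the cytoplasmic inhibitor that holds Gli proteins, was nearly level. It read 6.14 and 6.38 on the P-SSC arrays, 6.47 and 4.74 on the BM-SSC arrays, 6.13 in Nes+ BMSCs, 6.42 and 6.33 in CD51+ BMSCs, 6.39 and 6.54 in Osx+ cells and 6.76 and 6.61 in CD45+ cells. Apart from BM-SSC array 2 all readings were between 6.13 and 6.76, and the CD45+ arrays were the highest. It passed in no comparison with 11 arrays. With 9 arrays it was lower in P-SSCs than in CD45+ cells, by 0.55 ± 0.17 (a difference of -0.55, adjusted p = 0.0321), and the difference was -0.22 ± 0.14 in Osx+ cells (0.264). The other 2 probe sets of Sufu did not follow the one used (r = -0.291 and 0.18).

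**Figure D4:**
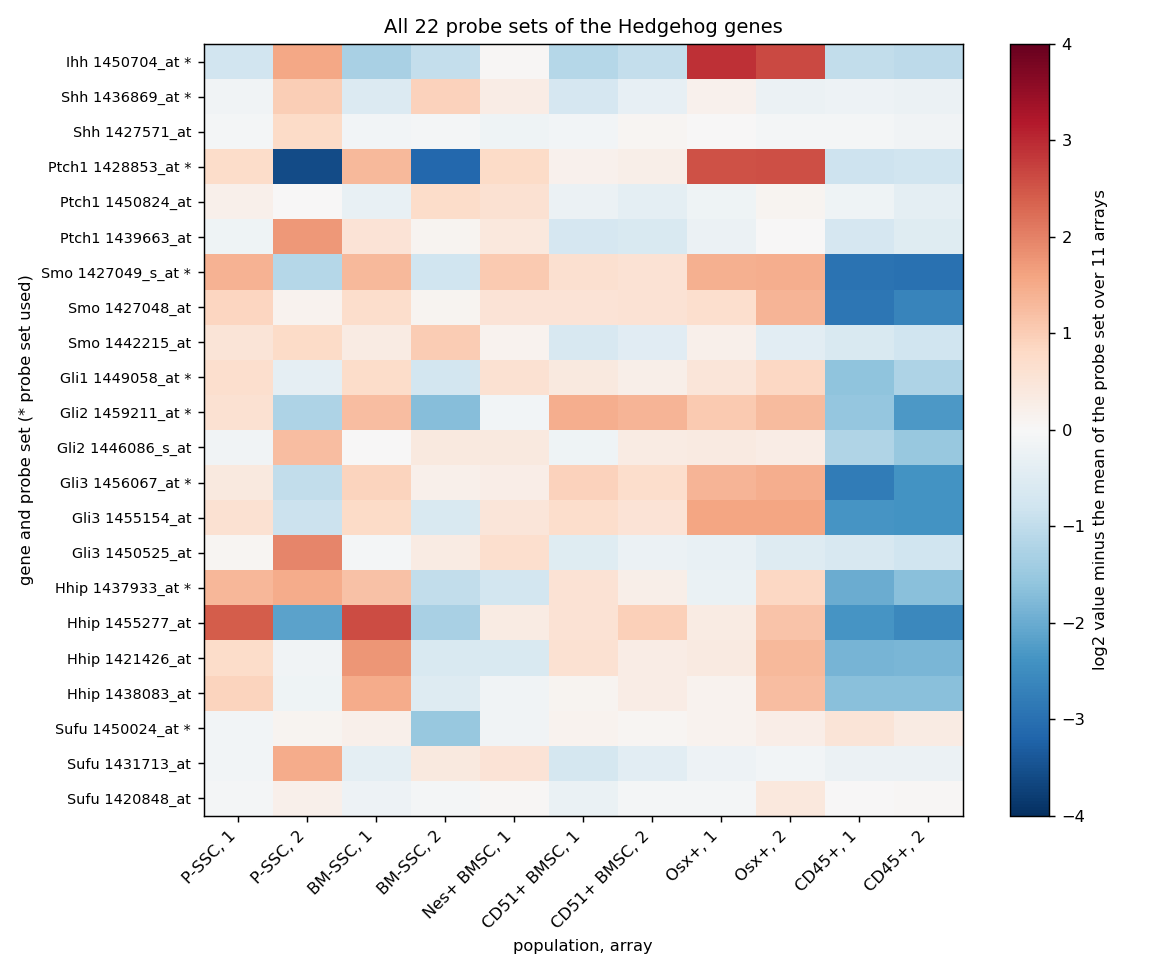
All 22 probe sets of the 9 Hedgehog genes (rows, the one used marked with a star) on the 11 arrays (columns), coloured by log2 value minus the mean of that probe set. The brighter probe sets of Smo, Gli3 and Hhip are blue on both CD45+ arrays, and of the 3 Ptch1 probe sets only the one used is deep red on the Osx+ arrays and deep blue on array 2 of the SSC populations.

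Same-numbered arrays of P-SSCs and BM-SSCs deviated together (r = 0.784), a shared spread that the main fit, without pairing, left in its SE. The differences between P-SSCs and BM-SSCs did not pass. With all arrays they ranged from -0.84 (Gli3) to 1.52 (Ihh, SE 0.66), with SE of 0.50 to 1.60 over the 9 genes, and all 9 adjusted p were 0.980 or higher. With 9 arrays they ranged from -0.63 (Gli2) to 0.55 (Ihh), the lowest adjusted p was 0.143, for Ptch1 (-0.56 ± 0.18), and 2.06% of probe sets passed. Some of the 9 genes passed only in the fit without P-SSC array 1. There the P-SSCs are array 2 alone, which stood apart from the rest, and no share of all probe sets is given. Between BM-SSCs and Nes+ BMSCs the 9-array fit compares 1 array with 1. There BM-SSCs had less Ihh (-1.35, adjusted p = 0.00750) and more Hhip (1.90, adjusted p = 0.0228), beside Gli2 and Shh above, so 2 genes were higher and 2 lower, and 15.8% and 12.1% of probe sets were.

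The co-receptors Boc, Cdon and Gas1, which help ligand bind Ptch1, were set beside the 9 genes, and were shown as a set after their values had been seen. Gas1 read 12.51 and 7.70 on the P-SSC arrays, 12.51 and 10.13 on the BM-SSC arrays, 11.75 in Nes+ BMSCs, 12.29 and 12.29 in CD51+ BMSCs, 8.83 and 8.87 in Osx+ cells and 5.35 and 5.12 in CD45+ cells. Over CD45+ cells, Gas1 was 6.09 ± 1.40 higher for BM-SSCs (adjusted p = 0.0396). In CD51+ BMSCs Gas1 was 7.06 ± 1.40 (0.0289) and Boc 3.52 ± 0.69 higher (0.0280). Unlike Ihh and Ptch1, their levels were lower in Osx+ cells than on array 1 of either SSC population. Array 2 mostly went the other way. There Boc read 6.23 in P-SSCs and 6.36 in BM-SSCs, against 6.62 and 6.91 on the Osx+ arrays. Cdon read 4.57 and 6.34 there, against 7.81 and 7.78. Gas1 on array 2 was below the Osx+ arrays in P-SSCs and above them in BM-SSCs. Against Osx+ cells none passed with 11 arrays. In the 9-array fit, where each SSC population is array 1 alone, Gas1 was 3.66, 3.66 and 3.44 higher in P-SSCs, BM-SSCs and CD51+ BMSCs. Boc was 1.25, 1.28 and 1.40 higher and Cdon 1.73, 1.37 and 0.91 higher in the same order.

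Of 5 genes of the ligand release families, 3 read higher on both Osx+ arrays than on the other 9, and these were picked after their values had been seen. They were Scube2 and Scube3, secreted proteins that carry lipid-modified Hedgehog away from the cell, and Disp1, the membrane transporter that releases it. Disp2 (4.499 and 4.502 on the Osx+ arrays) and Scube1 (7.06 and 6.30) overlapped with other populations. Scube3 read 6.42 and 6.22 in Osx+ cells and between 2.77 and 4.58 on the other 9 arrays. It was 3.34 ± 0.32 higher in Osx+ than in CD45+ cells (adjusted p = 0.000838), and relative to Osx+ cells its difference was -2.54, -2.68 and -3.50 for P-SSCs, BM-SSCs and CD51+ BMSCs (0.0174, 0.0167 and 0.00295). Scube2 read 5.93 and 6.004 in Osx+ cells and between 2.94 and 4.55 elsewhere, and Disp1 7.49 and 7.43 in Osx+ cells and between 4.93 and 7.10 elsewhere. Scube2 was 2.95 and Disp1 2.32 higher in Osx+ than in CD45+ cells (adjusted p = 0.00132 and 0.00429). Relative to Osx+ cells, the difference of Scube2 was -2.45 and -2.49 for BM-SSCs and CD51+ BMSCs (0.0211 and 0.00836), and that of Disp1 was -1.94 for P-SSCs (0.0489).

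**Figure D5:**
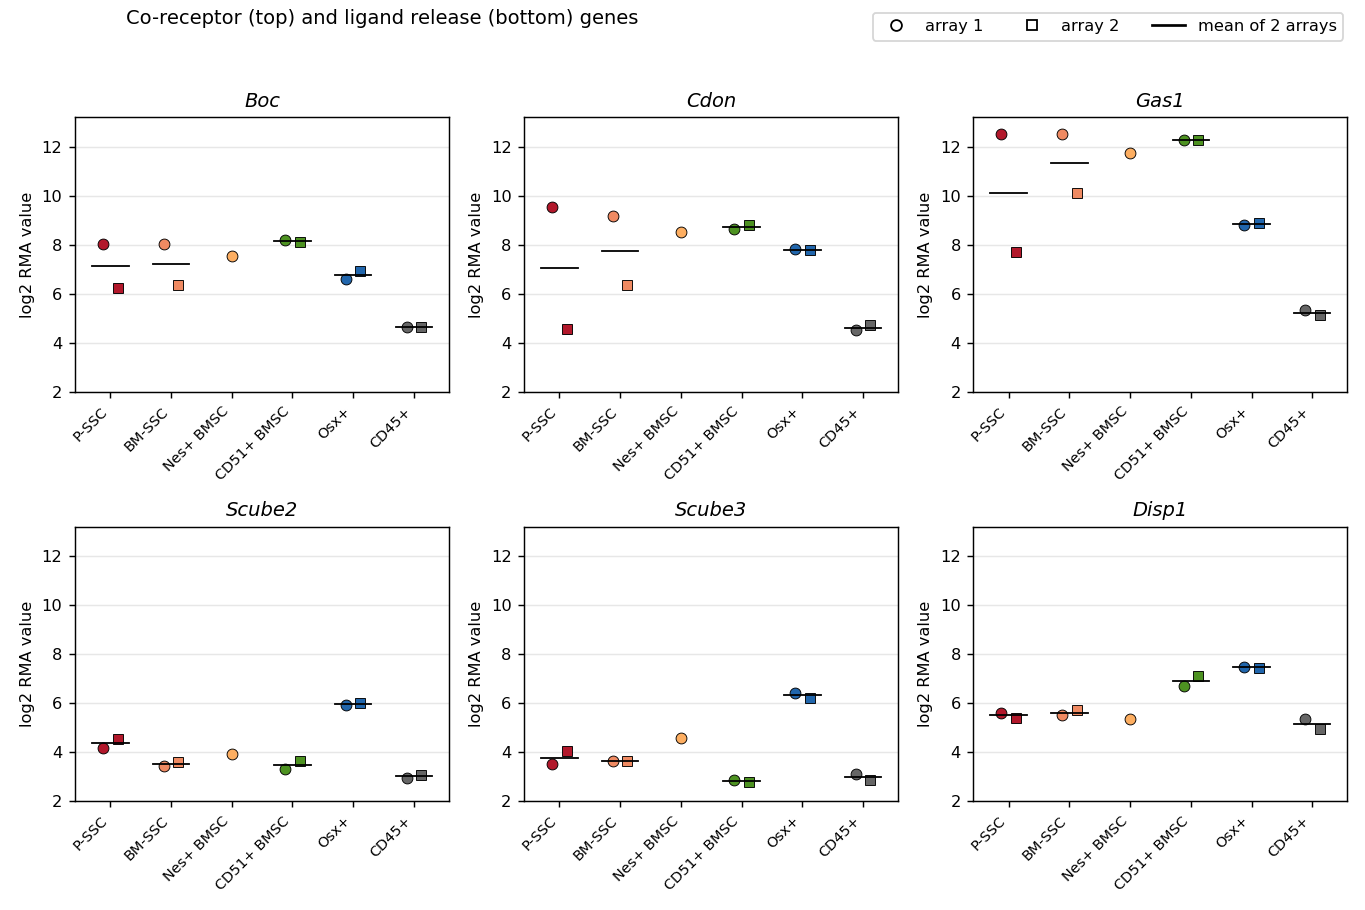
Log2 RMA value (y axes) of the co-receptors Boc, Cdon and Gas1 and of the ligand release genes Scube2, Scube3 and Disp1 on all 11 arrays, by population (x axes); circles are array 1, squares array 2 and lines the mean of 2 arrays. Gas1 reaches 12.51 on array 1 of both SSC populations against 8.83 and 8.87 in Osx+ cells, while Scube3 is highest in Osx+ cells, at 6.42 and 6.22.

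Over the whole list of 54 other pathway genes, 49 were measured. Over CD45+ cells, P-SSCs had 3 higher and 1 lower, BM-SSCs 2 higher, CD51+ BMSCs 6 higher, and Osx+ cells 7 higher and 1 lower, where 2.48%, 2.18%, 2.95% and 3.65% of all probe sets were higher. With 9 arrays 19, 16, 17 and 22 were higher, against 22.6%, 15.3%, 14.7% and 18% of probe sets, and 10, 10, 7 and 7 were lower, against 26%, 22%, 21.7% and 23.4%. Against Osx+ cells 2 were lower in each of P-SSCs, BM-SSCs and CD51+ BMSCs, where 0.762%, 0.584% and 0.711% of probe sets were. Next to Gas1, the largest differences that passed were those of Zic1, a transcription factor that works with Gli proteins, in Osx+ cells (6.75 ± 1.70, adjusted p = 0.0491), and Gpc3, a glypican that competes for Hedgehog in mouse growth, in CD51+ BMSCs (6.36 ± 1.07, 0.0167). Kif7, the ciliary kinesin that acts between Smo and Gli, was higher in P-SSCs (1.95, adjusted p = 0.0189), BM-SSCs (2.09, 0.0153) and Osx+ cells (2.14, 0.0102). Gpr161, a ciliary receptor that dampens the pathway, was 4.42 higher in CD51+ BMSCs than in CD45+ cells (adjusted p = 0.00554) and 2.79 higher than in Osx+ cells (0.0433). The median of the 49 genes was 0.36, 0.05, 0.16 and 0.23 in P-SSCs, BM-SSCs, CD51+ BMSCs and Osx+ cells over CD45+ cells, to be read beside the medians of all probe sets given above. Of the genes known in other tissues to be raised by Hedgehog signalling, 20 of 22 were measured. In the same 4 comparisons 2, 2, 4 and 5 were higher with 11 arrays and 11, 10, 9 and 9 with 9, and 2, 2, 4 and 2 were lower with 9, beside the same shares of all probe sets. Igf2, a growth factor, was higher in all 4, by 3.53, 3.81, 4.21 and 5.63 (adjusted p = 0.00803, 0.00604, 0.00621 and 0.000704). Against Osx+ cells 0 of the 20 passed in P-SSCs, BM-SSCs or CD51+ BMSCs, where 0.808%, 0.615% and 2.22% of probe sets did. With 9 arrays 4, 4 and 1 of them were higher than in Osx+ cells, against 12%, 7.15% and 13.3% of probe sets, and 4, 2 and 5 lower, against 14%, 7.46% and 11.4%.

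The 7 genes whose population means spanned over 2 log2 units were also set against all other genes by Pearson correlation over the 11 arrays, which share 2 unusual arrays. The 3 genes nearest to Ihh were Lss, Krt16 and Scube2 (r = 0.974, 0.953 and 0.948). Those nearest to Smo were Tgfb2, Ak1 and Ryk (0.993, 0.991 and 0.991), and those nearest to Gli1 were Fibin, Gpc4 and Ak1 (0.989, 0.987 and 0.980). Hdlbp, Nfatc2 and Bpnt2 were nearest to Ptch1, Ehbp1, 2700081O15Rik and Tbx18 to Gli2, BC034090, Mmp23 and Tead1 to Gli3, and Ctif, Pgm5 and Pomgnt2 to Hhip. Over 9 arrays these ranks changed: 1 of the 21 places named, Ehbp1 for Gli2, was still among the nearest 3, and the others ranked as far down as 55, Lss at 21, Krt16 at 11 and Scube2 at 38 for Ihh. Among the 9 genes themselves the closest pairs were Smo with Gli1 (r = 0.978) and Smo with Gli3 (0.948), and Ihh with Ptch1 was 0.339 over 11 arrays and 0.832 over 9. These values are descriptions over arrays of 6 populations.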

How the data were processed

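RNA of 6 sorted populations was measured on 11 Affymetrix mouse arrays. The files hold log2 values as deposited by the authors, made with RMA, which corrects background, quantile-normalizes across arrays and summarises probes, in Partek GS and R. The submitters' notes name limma, with no version.

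The deposited values were used as they stand, with 64 control probe sets left out and no filter on signal. Gene names came from the platform annotation. One limma model (limma 3.58.1, R 4.3.3) with population means as its terms took in all 11 arrays (5 residual and 2.65 prior degrees of freedom), and 11 comparisons were tested at an adjusted p of 0.05. All 9 Hedgehog genes are named, with the 3 genes most like each member spanning over 2 log2 units and up to 4 passing genes per list. The 9 genes, the lists and the tests were chosen with earlier results of these data known. Simulated data were used to test the code. Alternatives were other normalizations, a fit of the compared populations alone, a variance trend, removal of dim probe sets, other probe sets, the array number as a block, and leaving out arrays. The arrays' number and signal limit precision. Over 10 pairs of populations, same-numbered deviations correlated at 0.784 for BM-SSCs with P-SSCs and between -0.267 and 0.0115 for the rest. BM-SSCs and P-SSCs are the populations whose array 2 stood apart. Array numbers thus did not pair the samples across all populations, and the main fit used no pairing.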

Additional observations from a re-analysis of the deposited data

How the results depend on the processing

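The counts of the 9 genes that passed depended on the arrays and on the fit. Without array 2 of both SSC populations they were 7, 6, 6 and 7 in P-SSCs, BM-SSCs, CD51+ BMSCs and Osx+ cells over CD45+ cells, where 2, 1, 1 and 3 passed with all arrays. They were 3, 2 and 4 in P-SSCs, BM-SSCs and CD51+ BMSCs over Osx+ cells, where 0, 0 and 1 had passed. They were 2, 2 and 4 in P-SSCs and BM-SSCs over CD51+ BMSCs and BM-SSCs over Nes+ BMSCs, where 0 had passed in each. All 8 original calls remained in that fit. A fit of the compared populations alone gave 0, 0, 6 and 7 over CD45+ cells in the same order and 3 for CD51+ BMSCs over Osx+ cells. Quantile normalization gave 2 for BM-SSCs and 2 for CD51+ BMSCs over CD45+ cells and 0 for CD51+ BMSCs over Osx+ cells. Centring each array on its median gave 0 for P-SSCs over CD45+ cells and 1 for BM-SSCs over Osx+ cells, and a variance trend gave 1 for the last. Without the probe sets dimmer than the median one, CD51+ BMSCs over Osx+ cells had 0, because Ihh itself is among those. With the array number as a block, which omits the Nes+ array, 2 passed in BM-SSCs and 2 in CD51+ BMSCs over CD45+ cells, all 8 calls were kept and no other count moved by over 1.5 times. Same-numbered deviations correlated at 0.784 between BM-SSCs and P-SSCs and at 0.0115 or less between the other pairs of populations.

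Leaving out 1 array gave 0 to 4, 0 to 3, 0 to 4 and 1 to 6 genes in P-SSCs, BM-SSCs, CD51+ BMSCs and Osx+ cells over CD45+ cells. It gave 0 to 4, 0 to 1 and 0 to 1 in P-SSCs, BM-SSCs and CD51+ BMSCs over Osx+ cells, 0 to 2 and 0 to 1 in P-SSCs and BM-SSCs over CD51+ BMSCs, 0 to 2 in P-SSCs over BM-SSCs and 0 in BM-SSCs over Nes+ BMSCs. Without either CD45+ array 1 of the 8 calls was kept, Gli3 in Osx+ cells, without either Osx+ array 3 and without either CD51+ array 4. The highest counts over CD45+ cells came without a BM-SSC array, and those of P-SSCs over Osx+ cells, CD51+ BMSCs and BM-SSCs without P-SSC array 1. No share of all probe sets is given for these fits, and the cause of the moves was not tested.

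Other probe sets turned the sign of 9 of 13 differences of P-SSCs from Osx+ cells with 11 arrays, in 6 genes, and of 5 with 9 arrays. Among them Ptch1 read 0.14 and 0.88 on its other 2 probe sets in place of -4.0003 and Gli3 1.43 on its dimmest in place of -1.70. With 1 or 2 arrays per population, a difference that did not pass is not shown to be absent.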

Other observations

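The median growth plate and cartilage gene separated Osx+ cells from CD45+ cells, P-SSCs and BM-SSCs more widely than any of 9 Hedgehog genes. From CD51+ BMSCs it did not, with a median of -3.72 beside -3.82 for Ihh, which growth plate cartilage normally makes. Of 27 listed genes 26 were measured. In Osx+ cells 22 were higher than in CD45+ cells, against 3.65% of all probe sets, with a median difference of 8.62 log2 units. The largest were Col2a1, the main collagen of cartilage (11.30 ± 0.78, SE, adjusted p = 0.000268), Col11a1 (11.02 ± 1.30, 0.00204), Comp, a cartilage matrix protein (10.91 ± 2.37, 0.0280), and Hapln1, which links aggrecan to hyaluronan (10.84 ± 1.55, 0.00475). Of the 26, P-SSCs had 14 lower than Osx+ cells, BM-SSCs 13 and CD51+ BMSCs 12, with medians of -6.75, -5.05 and -3.72, where 0.762%, 0.584% and 0.711% of all probe sets were lower. These 4 comparisons share the Osx+ arrays. With 9 arrays the numbers lower were 24, 24 and 25, against 14%, 7.46% and 11.4% of probe sets.

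Markers of blood cells were high in CD51+ BMSCs as well as in CD45+ cells, the population that most Hedgehog genes were compared with. Their mean log2 level over 10 markers was 9.97 and 9.86 in CD51+ BMSCs, with 0 of 10 at or under the array median, and 11.90 and 11.84 in CD45+ cells. It was 6.29 and 5.42 on the P-SSC arrays, 7.18 and 6.06 on the BM-SSC arrays, 5.50 in Nes+ BMSCs and 3.83 and 5.42 in Osx+ cells. Ptprc, which encodes CD45, read 10.23 and 10.17 in CD51+ BMSCs and 12.06 and 12.05 in CD45+ cells, although the CD51+ cells were sorted as CD45-. Skeletal muscle markers were higher in CD51+ BMSCs too, 6 of 7 over CD45+ cells against 2.95% of all probe sets, with a median difference of 3.79. Their mean log2 level was 7.11 and 7.997 in CD51+ BMSCs, 3.87 to 5.20 on the other skeletal arrays and 3.82 and 3.86 in CD45+ cells. Gli3, Smo and Gli2 were high in CD51+ BMSCs, and the part of these blood and muscle markers in their levels was not tested.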
